A study of Mus musculus with 36 samples.

Results

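The transition from mouse embryonic stem cells (ESCs) to epiblast-like cells (EpiLCs) was examined in a line that lacks JARID2, called J2KO. The comparison takes in all genes of 3 J2KO EpiLC libraries and 3 J2KO ESC libraries, which are 6 of the 36 RNA-seq libraries of the study. The deposited tables held 55401 genes. At least 1 count was found for 31147 of them in the 6 J2KO libraries, and 13832 had a mean normalized count of at least 15 and were tested. J2KO EpiLCs were obtained from J2KO ESCs in 2 days on fibronectin, in NDiff227 medium with activin A (20 ng/ml), bFGF (12 ng/ml) and 1% KSR. J2KO ESCs were held in GMEM with 20% FBS, LIF and the inhibitors CHIRON99021 (3 µM) and PD0325901 (1 µM), of GSK3 and MEK. J2WT EpiLCs and J2WT ESCs, from the wild-type line matched to J2KO, were treated in the same way, with 3 libraries each. JARID2 loss was also examined in a second background, as QKO against TKO at both stages in 12 libraries. TKO is without MTF2, PHF1 and PHF19, the Polycomb-like proteins, and QKO is without these and without JARID2. All lines carry the strain label C57BL/6. Each genotype stands for 1 named line, so that genotype and line cannot be told apart where J2KO and J2WT are set against each other.

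PRC2 is the complex that methylates histone H3 at lysine 27 and holds developmental genes silent. It occurs as PRC2.1, with a Polycomb-like protein, and as PRC2.2, with JARID2 and AEBP2, and JARID2 binds ubiquitinated histone H2A. ESCs with LIF and the inhibitors resemble the naive epiblast before implantation, and EpiLCs resemble the formative epiblast after implantation, which has left naive pluripotency but has not yet chosen a germ layer.

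The J2KO libraries held 16082221 to 18026492 counts in genes, and the J2WT libraries 15924615 to 17154437. The QKO and TKO libraries were shallower, at 6784578 to 11253158 counts. Nothing states that the replicates came from separate cultures, and the p-values then reflect only library-to-library spread, part of which may be technical. Jarid2 itself (chr13:44729474-44921643, GRCm38) had 502, 511 and 509 CPM in J2KO EpiLCs, against 410, 413 and 411 CPM in J2KO ESCs. Here CPM is the count of a gene per 1000000 counts in genes, with library sizes scaled by the TMM method. In the matched wild type, Jarid2 had 767, 774 and 766 CPM in J2WT EpiLCs, against 467, 460 and 443 CPM in J2WT ESCs. A count over the whole gene does not show which exons are missing, so these values check no label. Between lines, genes of chromosome 11 had a median log2 difference, J2KO minus J2WT, of 0.49 in EpiLCs and 0.44 in ESCs, and those of chromosome 14 of 0.23 in EpiLCs and 0.18 in ESCs. The medians of the other autosomes and X lay between -0.09 and 0.08. In the stage comparison within J2KO, the medians of all autosomes and X lay between -0.11 and 0.10. The part of chromosome 11 in the differences between lines was not tested.

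A gene is said below to rise, fall or be called when its Benjamini-Hochberg adjusted p in edgeR was under 0.05 and its absolute log2 fold change was over 1. In J2KO cells 2098 of 13832 genes rose (15.2%) and 1666 fell (12%) in EpiLCs relative to ESCs. The same comparison in J2WT cells gave 2130 higher genes (15.4%) and 2056 lower genes (14.8%) of 13867. Over the 13332 genes tested in both lines, 1929 rose in J2KO, and 1509 of these also rose in J2WT, which is 78.2% of the J2KO list and 75.3% of the J2WT list, beside 15% of all genes. Of 1553 genes that fell in J2KO, 1196 also fell in J2WT, which is 77% of the J2KO list and 64.6% of the J2WT list, beside 13.9% of all genes. In opposite directions, 10 genes rose in J2KO and fell in J2WT, and 5 did the reverse. Across these genes, which are not independent replicates, Pearson's r between the log2 fold changes of J2KO and of J2WT was 0.89.

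The difference of the stage effects, J2KO minus J2WT, was tested as the interaction of genotype and stage in all 12 libraries. It was called higher for 856 of 13912 genes (6.15%) and lower for 718 (5.16%). The direction of this difference was counted over genes called in either line. The 2005 genes that rose in J2WT had a median log2 fold change of 1.63 in J2KO and 1.96 in J2WT, and the difference was called toward 0 for 481 of them and away from 0 for 95. For the 1850 genes that fell in J2WT the medians were -1.24 in J2KO and -1.65 in J2WT, with 401 called toward 0 and 29 away from it. Choosing the genes by the J2KO call instead gave a more even split, with the change called smaller in J2KO than in J2WT for 275 and larger for 251 of the 1929 genes that rose in J2KO, and smaller for 171 and larger for 110 of the 1553 that fell. The split thus depends on the line whose calls choose the genes, and since those values also enter the difference, the counts describe the genes and test nothing. For 496 of the genes that rose in J2WT a call in the same direction was missing in J2KO, and 206 of these had a called difference. It was likewise missing for 654 of those that fell, and 230 of these had a called difference. Conversely, 156 genes rose and 81 fell in J2KO with no call in the same direction in J2WT and a called difference.

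**Figure D1:**
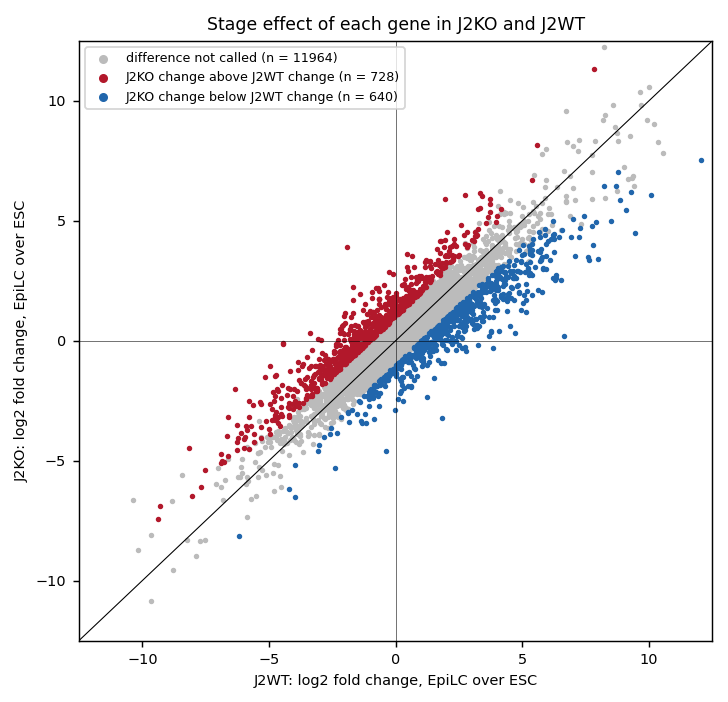
Each point is 1 of the 13332 genes tested in both lines, with its log2 fold change (EpiLC over ESC) in J2KO on the y axis and in J2WT on the x axis. Red and blue points are genes whose difference of stage effects was called higher or lower, and the line marks equal change. Most genes follow the line (r 0.89), and the called genes lie along both flanks.

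The naive pluripotency genes fell without JARID2. Of 15 listed genes, all tested, 13 fell in J2KO (86.7%, beside 12% of all genes) and 1 rose. The median log2 fold change was -3.16 (-0.01 over all tested genes). In J2WT 13 fell and 1 rose, with a median of -3.73. Klf4 (ENSMUSG00000003032, chr4:55527143-55532466), a reprogramming factor that sustains the naive state, had 10.1, 10.6 and 10.5 CPM in J2KO EpiLCs, against 539, 537 and 539 CPM in J2KO ESCs. The groups lay far apart, and the log2 fold change was -5.67 ± 0.04 (SE, n = 3 each, edgeR adjusted p = 9.4e-39). Tbx3, a T-box factor of naive cells, had 9.39, 8.2 and 9.96 CPM in J2KO EpiLCs, against 586, 581 and 595 CPM in J2KO ESCs (log2 fold change -5.98 ± 0.04). Its fall in J2WT was of nearly the same size (-5.91 ± 0.05), and the difference of -0.06 ± 0.10 was not called. The homeodomain factor Nanog fell by 4.17 on the log2 scale in J2KO and by 3.73 in J2WT, Esrrb by 3.16 in J2KO and by 3.85 in J2WT, and Tfcp2l1 by 5.67 in J2KO and by 5.86 in J2WT. These 3 transcription factors belong to the naive network, and none of their differences was called. Prdm14, which represses FGF receptor signalling and de novo DNA methylation in naive ESCs, was the naive gene with a called difference. It had 4.11, 4.74 and 4.92 CPM in J2KO EpiLCs, against 69.1, 71.6 and 70.2 CPM in J2KO ESCs. In the wild type it had 1.28, 0.736 and 0.894 CPM in J2WT EpiLCs, against 49, 48.2 and 47 CPM in J2WT ESCs. Prdm14 thus fell in both lines but by less in J2KO, with log2 fold changes of -3.91 ± 0.07 in J2KO and -5.60 ± 0.11 in J2WT and a difference of 1.69 ± 0.20 (edgeR adjusted p = 2.2e-08). Dppa3, a maternal factor that protects DNA methylation, was the naive gene that rose (2.67 ± 0.29 in J2KO, 1.95 ± 0.21 in J2WT). It was low in all J2KO libraries, at 2.46 to 4.25 CPM in EpiLCs against 0.31 to 0.831 CPM in ESCs. Gbx2 was not called in J2KO (0.95 ± 0.08).

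The formative and primed genes were switched on without JARID2. Of 17 listed genes 16 rose in J2KO (94.1%, beside 15.2% of all genes) and none fell, with a median log2 fold change of 3.15. In J2WT 16 rose as well, with a median of 4.48, and Foxd3, a forkhead factor present at both stages, was the gene not called in either line (0.73 ± 0.04 in J2KO, 0.43 ± 0.04 in J2WT). Fgf5 (ENSMUSG00000029337, chr5:98254184-98277030), the growth factor that marks the epiblast after implantation, had 117, 117 and 119 CPM in J2KO EpiLCs, against 0.178, 0.062 and 0.133 CPM in J2KO ESCs. Its log2 fold change was 9.82 ± 0.11 (edgeR adjusted p = 8.4e-34). In the matched wild type Fgf5 reached 59, 58.7 and 57.1 CPM in J2WT EpiLCs, against 0, 0.193 and 0 CPM in J2WT ESCs. The level in EpiLCs was therefore higher in J2KO than in J2WT, by 1.02 ± 0.04 on the log2 scale. Otx2, the homeobox factor that directs exit from the naive state, had 336, 339 and 345 CPM in J2KO EpiLCs, against 4.1, 3.66 and 4.31 CPM in J2KO ESCs. It also stood above the wild type in EpiLCs, where J2WT had 112, 116 and 122 CPM (log2 difference 1.55 ± 0.03, J2KO over J2WT). The de novo DNA methyltransferases rose in J2KO by 4.97 ± 0.03 (Dnmt3a) and 4.51 ± 0.03 (Dnmt3b) on the log2 scale. For Dnmt3b the level in EpiLCs was near that of the wild type, at 1949, 1973 and 1884 CPM in J2KO against 2180, 2217 and 2242 CPM in J2WT. In ESCs it was lower, at 87.4, 85.5 and 86.7 CPM in J2KO against 264, 255 and 252 CPM in J2WT, and the rise was larger in J2KO by 1.38 ± 0.04.

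For 5 formative genes the rise in J2KO was smaller than in J2WT, and the levels show that the ESCs differed more than the EpiLCs. Pou3f1 (Oct6), a POU factor of the epiblast and of neural cells, had 489, 480 and 485 CPM in J2KO EpiLCs, against 552, 555 and 567 CPM in J2WT EpiLCs. In ESCs it had 6.41, 4.89 and 5.38 CPM in J2KO, against 1.31, 1.48 and 1.26 CPM in J2WT. The rise was 6.46 ± 0.05 in J2KO and 8.70 ± 0.07 in J2WT, a difference of -2.24 ± 0.15 (edgeR adjusted p = 4.0e-13). Sox3, a SoxB1 factor, showed a difference of -2.78 ± 0.23, with 21.8, 19.5 and 19.5 CPM in J2KO EpiLCs against 20.8, 22.9 and 22.5 CPM in J2WT EpiLCs, while its ESC level was called higher in J2KO by 2.65 ± 0.23. The RNA-binding protein gene Lin28b (difference -2.32 ± 0.15), the epithelial regulator Grhl2 (-1.96 ± 0.08) and Sox4 (-1.20 ± 0.08) were likewise called higher in J2KO ESCs than in J2WT ESCs, by 2.81 ± 0.15, 2.17 ± 0.08 and 1.28 ± 0.08 in that order. None of these 5 was called between the lines in EpiLCs. Of the whole formative list, 8 of 15 tested genes were called higher in J2KO ESCs than in J2WT ESCs and 1 lower, beside 6.82% of all genes called higher and 6.52% called lower. Genes low in J2WT ESCs could meet the count minimum of this comparison through their J2KO counts alone.

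Among 11 genes of general pluripotency, 2 rose (18.2%) and 1 fell (9.09%) in J2KO, shares near those of all genes (15.2% and 12%). Pou5f1 (Oct4), which is required in both states, had 684, 663 and 672 CPM in J2KO EpiLCs, against 818, 797 and 830 CPM in J2KO ESCs, and was not called (-0.25 ± 0.03). Sox2 fell by 1.07 in J2KO, and Utf1 rose, as did Lin28a (log2 fold change 2.95 ± 0.03). No difference of stage effects between J2KO and J2WT was called in this list by edgeR.

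**Figure D2:**
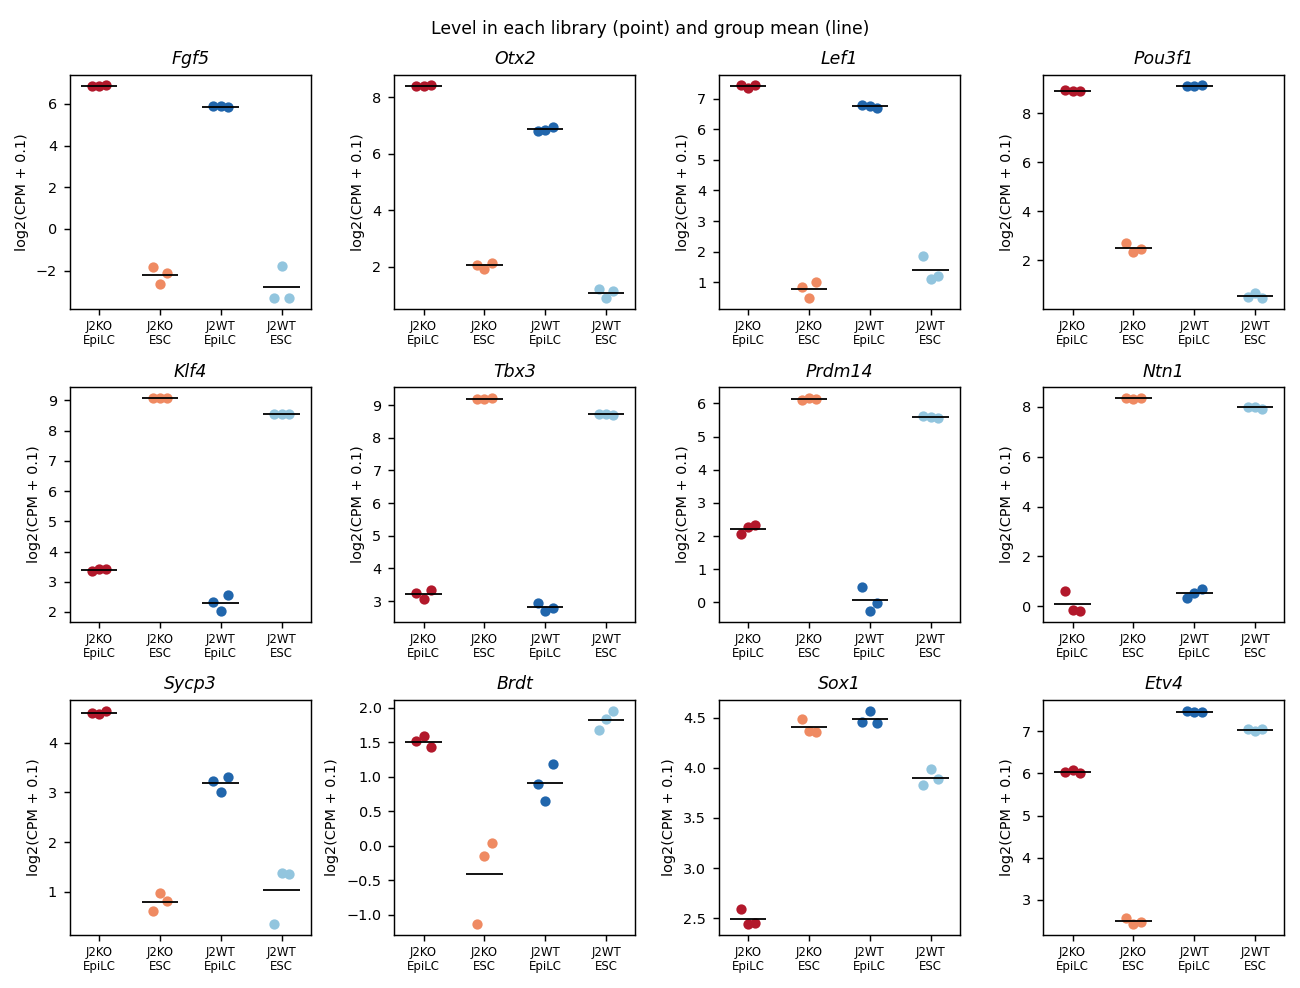
Points are single libraries and lines are group means of log2(CPM + 0.1), with J2KO in red, J2WT in blue, and EpiLCs in the darker shade left of the ESCs. Klf4, Tbx3 and Ntn1 are low and Fgf5, Otx2 and Lef1 are high in the EpiLCs of both lines, while Sox1, Etv4 and Brdt differ between the lines in direction or starting level.

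The 10 protein-coding genes with the largest rise in J2KO, among those whose libraries did not overlap, were Gbp2b, Car4, Gbp2, Gbp3, Rbbp8nl, Fgf5, Dcn, Rxrg, Vrtn and Gadd45g. Guanylate-binding protein genes, which encode interferon-induced GTPases, take 3 of these places. Gbp2b had 34.4, 36.1 and 40.2 CPM in J2KO EpiLCs and no count in J2KO ESCs, so that, with 3 counts in the whole ESC group taken as the floor, it was at least 590-fold higher. Gbp3, with 10.9, 10 and 10.7 CPM in J2KO EpiLCs and no count in J2KO ESCs, was at least 169-fold higher. Gbp2 had 43, 42.1 and 45.4 CPM in J2KO EpiLCs, with 2095 counts in all, against 1 count in J2KO ESCs, a ratio of 2087 (exact 95% interval 374 to 82485, counting error only). Without J2KO ESC replicate 2, which holds that count, no J2KO ESC count is left to set it against. In J2WT EpiLCs the levels of Gbp2 were lower, at 7.56, 8.16 and 8.05 CPM, and the log2 difference between the lines in EpiLCs was 2.46 ± 0.07. These genes are neighbours on chromosome 3 and share sequence, and reads that map to several places were not counted, so their levels are uncertain. Their promoters are shown because each holds GAAA, any 2 bases and GAAA again, the core of an interferon-stimulated response element, in the 300-base RefSeq window from 250 bases before to 50 bases after the start site (GRCm38.p6, both strands searched). The motif occurs in 3.44% of 32851 such windows, and counted by gene in 3.99% of 27025 genes with a window. Among genes with a window it occurs in 4.8% of the 1543 that rose in J2KO, beside 3.35% of all tested. Capitals mark the match, which lies on the opposite strand and so reads TTTC, 2 bases and TTTC. A match is a description of the sequence and no measured binding.
Gbp2 (chr3:142620584-142620633): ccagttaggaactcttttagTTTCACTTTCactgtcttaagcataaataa
Gbp2b (chr3:142594690-142594739): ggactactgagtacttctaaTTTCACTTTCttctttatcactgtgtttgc
Gbp3 (chr3:142559979-142560028): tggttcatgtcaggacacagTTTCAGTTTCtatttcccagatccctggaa

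Car4, a membrane-bound carbonic anhydrase, had 71.6, 73.3 and 69.5 CPM in J2KO EpiLCs, against 0.0594, 0 and 0 CPM in J2KO ESCs, a ratio of 3435 (exact 95% interval 616 to 135731). Dcn, which encodes the matrix proteoglycan decorin, was at least 93.3-fold higher and the retinoid X receptor gene Rxrg at least 83.7-fold higher, each with no count in J2KO ESCs. Vrtn, known in pigs for vertebral number, reached 65.7, 62.7 and 67.1 CPM in J2KO EpiLCs, against 0.119, 0.124 and 0.0664 CPM in J2KO ESCs. Gadd45g, a stress and growth-arrest gene, had 65.9, 65.5 and 62.8 CPM in J2KO EpiLCs, against 0.0594, 0.124 and 0.133 CPM in J2KO ESCs. Of these 5 genes Car4 had a called difference of stage effects between the lines (3.48 ± 0.92), and Dcn, Rxrg, Vrtn and Gadd45g had none. The Car4 difference rests on the 1 count in J2KO ESCs and was 5.34 without J2KO ESC replicate 1, which holds it.

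The 10 largest falls were those of Spic, Hspb7, Pramel6, Trpm1, Hoxc12, Sgcz, Ntn1, Sh2d4b, Tlx2 and Cdx1. Ntn1 (chr11:68209364-68400823), which encodes the secreted guidance cue netrin 1, had 1.41, 0.789 and 0.776 CPM in J2KO EpiLCs, against 325, 315 and 326 CPM in J2KO ESCs (log2 fold change -8.30 ± 0.07, edgeR adjusted p = 3.6e-37). Spic, an ETS factor gene, had no count in J2KO EpiLCs and 13.8, 15.4 and 13.8 CPM in J2KO ESCs, and was at least 231-fold lower. Hspb7, a small heat shock protein gene, was at least 96.7-fold lower and Pramel6, a PRAME-like gene that acts against DNA methylation in naive ESCs, at least 64.2-fold lower. All 10 genes also fell in J2WT. The starting level of Pramel6 differed, at 4.51, 3.53 and 3.92 CPM in J2KO ESCs against 87.3, 87.8 and 85 CPM in J2WT ESCs.

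Germline genes rose as a group in J2KO. These genes act in meiosis and in the piRNA pathway and are held silent in somatic cells by DNA methylation and by a Polycomb complex that recognizes E-boxes through MGA and MAX. Of 15 listed genes 14 were tested, 10 rose (71.4%) and none fell, beside 15.2% and 12% of all genes. The median log2 fold change was 1.88 (-0.01 over all tested genes). In J2WT 9 rose and 1 fell, with a median of 1.67. Mael, a piRNA factor, had 53, 54.7 and 52.9 CPM in J2KO EpiLCs, against 3.62, 3.84 and 4.05 CPM in J2KO ESCs (3.83 ± 0.08), and its rise in J2WT was 3.79 ± 0.10, with a difference of 0.03 ± 0.17. The RNA helicase gene Ddx4 rose by 2.01 ± 0.13 in J2KO and by 2.08 ± 0.12 in J2WT, and Tdrd1, a Tudor protein gene, by 4.74 ± 0.26 in J2KO and 4.66 ± 0.31 in J2WT. Sycp3, a component of the synaptonemal complex, rose further in J2KO. It had 24.1, 23.7 and 24.8 CPM in J2KO EpiLCs, against 1.43, 1.86 and 1.66 CPM in J2KO ESCs, and in the wild type 9.32, 7.98 and 9.77 CPM in J2WT EpiLCs, against 1.18, 2.51 and 2.46 CPM in J2WT ESCs. The difference was 1.74 ± 0.26 (edgeR adjusted p = 1.5e-06). Brdt, a bromodomain protein gene of spermatocytes, rose in J2KO (2.02 ± 0.26), with 2.76, 2.91 and 2.59 CPM in EpiLCs against 0.356, 0.805 and 0.929 CPM in ESCs. In J2WT it was lower in EpiLCs, at 1.77, 1.47 and 2.17 CPM against 3.11, 3.48 and 3.78 CPM in ESCs, and the difference was 2.94 ± 0.32. Differences were also called for Dazl (1.01 ± 0.09) and Tex101 (1.95 ± 0.28), neither of which was called in J2KO itself. The call for Dazl lay at the threshold and was lost, at 0.97 to 1.00, without J2KO ESC replicate 3, J2KO EpiLC replicate 3, J2WT ESC replicate 2 or 3, or J2WT EpiLC replicate 2 or 3, and with no count minimum (0.99).

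E-boxes are known silencer sites of such genes, and the promoters of the list were searched for CACGTG, which reads the same on both strands. A RefSeq window was held for 13 of the 15 genes. The hexamer lay in windows of 10 of these 13 genes, of all 8 that rose in J2KO and of 2 of the other 5. Counted by gene it lay in 8.09% of 27025 genes with a window, and by window in 7.15% of all 32851. Among all genes with a window it lay in 10.7% of the 1543 that rose in J2KO, in 11.9% of the 1146 that fell and in 11.9% of all 10358 tested. The 8 risers and, for contrast, Sycp1 and Stk31, which were not called, are shown on the strand of the gene with the hexamer in capitals. No binding was measured here.
Ddx4 (chr13:112652314-112652359): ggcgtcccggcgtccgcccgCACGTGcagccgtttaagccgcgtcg
Mael (chr1:166238942-166238987): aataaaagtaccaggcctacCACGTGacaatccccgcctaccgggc
Sycp3 (chr10:88459503-88459548): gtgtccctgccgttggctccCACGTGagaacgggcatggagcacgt
Tdrd1 (chr19:56826178-56826223): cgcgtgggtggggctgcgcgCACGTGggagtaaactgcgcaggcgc
Taf7l (chrX:134476514-134476559): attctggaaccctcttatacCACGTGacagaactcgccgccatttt
Hormad1 (chr3:95559637-95559682): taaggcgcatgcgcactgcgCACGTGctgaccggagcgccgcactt
Slc25a31 (chr3:40708758-40708803): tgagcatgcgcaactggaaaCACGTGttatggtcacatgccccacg
Brdt (chr5:107331096-107331141): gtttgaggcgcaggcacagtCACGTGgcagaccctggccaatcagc
Sycp1 (chr3:102936169-102936214): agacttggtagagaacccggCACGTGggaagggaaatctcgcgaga
Stk31 (chr6:49395464-49395509): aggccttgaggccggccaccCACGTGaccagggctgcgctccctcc

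Polycomb target genes were taken from the sites at which binding of the PRC2 core subunit SUZ12 is gained (recruited), lost (displaced) or kept (maintained) between ESCs and EpiLCs of wild-type lines, with a gene assigned when a start site lies within 2000 bp. The classes rest on ChIP and not on these RNA values, but J2WT was among the wild-type lines used for that ChIP. Sites chosen by their change in J2WT could by that choice show a larger change in J2WT than in J2KO, which was not tested. Recruited genes fell in J2KO as they did in J2WT. Of 503 recruited genes 360 were tested in J2KO and 221 fell (61.4%), with 4 higher (1.11%), beside 12% and 15.2% of all genes. The median log2 fold change was -1.38. In J2WT 275 of 362 fell (76%), with a median of -1.87. Displaced genes moved the other way. Of 96 displaced genes 76 were tested and 59 rose in J2KO (77.6%) with none lower, and the median was 2.93. In J2WT 68 of 77 rose (88.3%), with a median of 3.74. Genes under the count minimum enter none of these values. Of the maintained genes, whose site list was used only in part, 440 of 1166 rose in J2KO (37.7%) and 118 fell (10.1%).

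**Figure D3:**
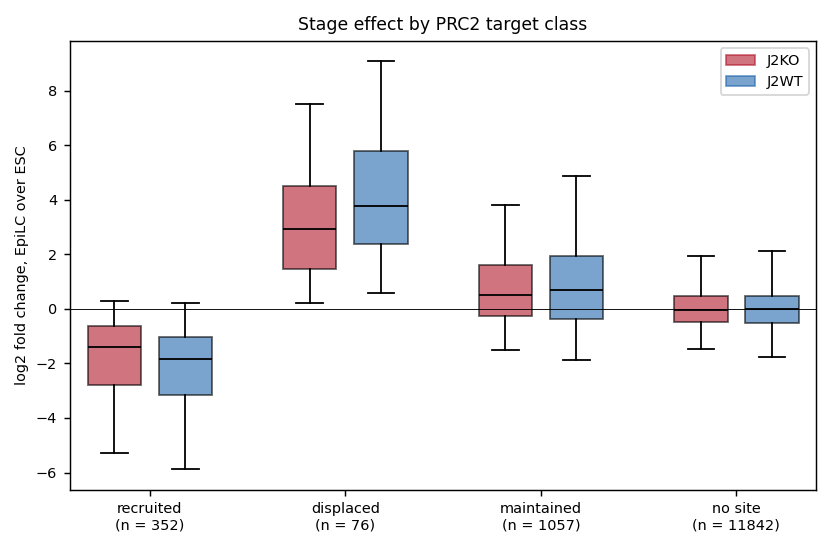
Boxes give the median and quartiles, and whiskers the 5th to 95th percentiles, of the log2 fold change (EpiLC over ESC) in J2KO (red, left of each pair) and J2WT (blue), over the genes of each PRC2 class tested in both lines. The boxes of recruited and displaced genes lie nearer 0 in J2KO than in J2WT, on opposite sides of the line at 0.

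Both classes moved less in J2KO than in J2WT. Among 362 recruited genes the difference of stage effects was called higher, that is a smaller fall or a rise in J2KO, for 81 (22.4%) and lower for 14 (3.87%), beside 6.15% and 5.16% of all genes. Among 76 displaced genes it was called lower for 32 (42.1%) and higher for 4 (5.26%). The stages show where the lines were apart. In EpiLCs 46 of 317 recruited genes were called higher in J2KO than in J2WT (14.5%, beside 6.07% of all genes) and 11 lower. In ESCs 55 of 373 were called lower in J2KO (14.7%, beside 6.52%) and 21 higher. Displaced genes were called higher in J2KO ESCs for 25 of 59 (42.4%, beside 6.82%) and lower for 3, whereas in EpiLCs 3 of 79 were called higher and 6 lower. The 59 are those of 96 displaced genes that met the count minimum in ESCs. A gene near silent in J2WT ESCs could meet it through J2KO alone, as Armcx3 did with 103 counts against 1. This choice can raise the share of 42.4%, which describes only the genes tested. These comparisons share libraries with the difference of stage effects, so they show its 2 sides and add no independent evidence.

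**Figure D4:**
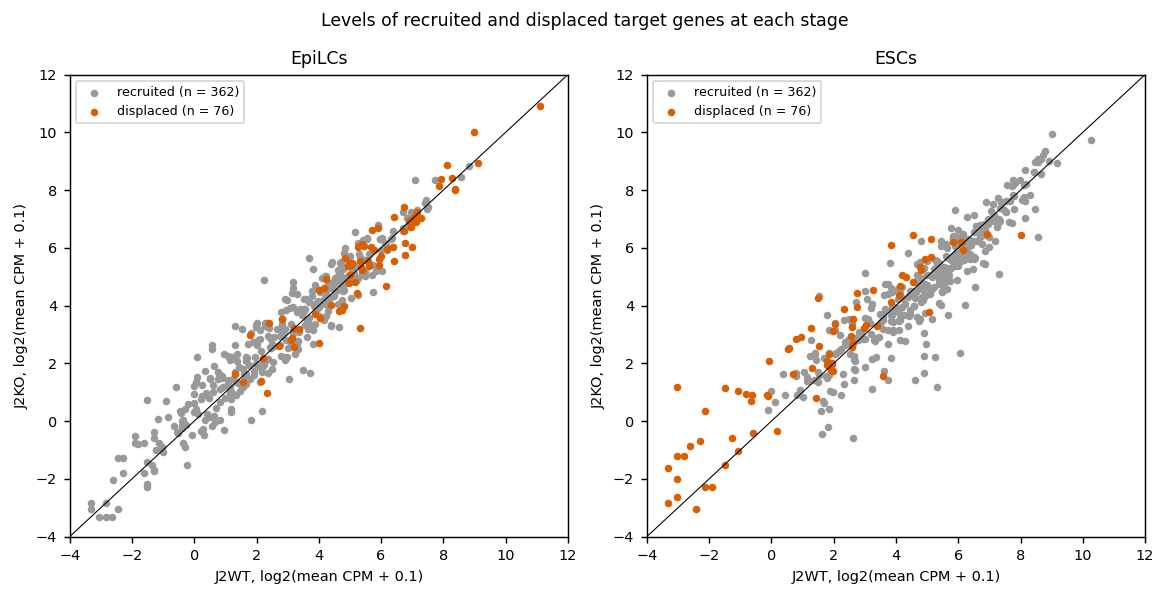
Each point is a recruited (grey) or displaced (orange) gene with log2(mean CPM + 0.1) in J2KO on the y axis and in J2WT on the x axis, in EpiLCs on the left and in ESCs on the right, and the line marks equal levels. Most displaced genes lie above the line in ESCs, where 25 of 59 tested were called higher in J2KO, and along it in EpiLCs, where 3 of 79 tested were.

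The recruited genes with the largest falls in J2KO were Hoxc12, Ntn1, Tlx2, Cdx1 and Aqp3. Aqp3, a water and glycerol channel gene, had 0.552, 0.668 and 0.776 CPM in J2KO EpiLCs, against 81.1, 81.1 and 84.7 CPM in J2KO ESCs, and started higher in J2WT ESCs (377, 372 and 385 CPM). Its fall of 6.91 on the log2 scale in J2KO was thus smaller than that of 9.31 in J2WT, with a difference of 2.40 ± 0.36. The EpiLC level was as low in J2WT, at 0.853, 0.307 and 0.575 CPM. Khdc3 (Filia), a maternal-effect gene that guards genome stability in ESCs, had 2.76, 2.79 and 2.65 CPM in J2KO EpiLCs, against 3.5, 2.66 and 2.99 CPM in J2KO ESCs, and was not called (-0.14 ± 0.17). In the wild type it had 1.4, 1.41 and 1.15 CPM in J2WT EpiLCs, against 28.3, 30.4 and 29.7 CPM in J2WT ESCs. The difference of 4.31 ± 0.22 (edgeR adjusted p = 7.0e-16) was the largest among recruited genes, and it lay mostly in the ESCs. Cited4, Slc16a9, Frmd4b and Npr3 followed, with differences of 3.40 ± 0.41, 3.30 ± 0.42, 2.72 ± 0.19 and 2.68 ± 0.31 in that order. In the other direction stood Nkx1-2, Lama1, Lrrn2, Itga9 and Pcdhgb7. Lama1, the laminin alpha 1 gene, fell further in J2KO, with 2.76, 3.83 and 2.65 CPM in J2KO EpiLCs against 12.4, 14 and 13.1 CPM in J2WT EpiLCs (difference -2.50 ± 0.13). Itga9, an integrin gene, fell only in J2KO (-1.49 ± 0.09 in J2KO, 0.62 ± 0.16 in J2WT, difference -2.11 ± 0.18). Of the 4 recruited genes that rose in J2KO, 3 were protein-coding genes with a name other than a clone or model number (Tnfrsf13c, Map6 and Ndrg1). Map6, a microtubule-stabilizing protein gene, was called in opposite directions in the lines. It had 5.89, 6.38 and 6.27 CPM in J2KO EpiLCs, against 3.15, 2.29 and 2.32 CPM in J2KO ESCs, whereas in J2WT it had 8.59, 9.33 and 11.2 CPM in EpiLCs, against 23.8, 26.3 and 22.5 CPM in ESCs (difference 2.57 ± 0.18).

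The displaced genes with the largest rises in J2KO were Vrtn, Gadd45g, Ccdc194, Tmem54 and Bcl11a, and those with the largest called difference toward a smaller rise were Armcx3, Bcl11a, Cthrc1, Zfp608 and Dll1. Bcl11a, a zinc finger repressor gene, had 43, 42.6 and 41.7 CPM in J2KO EpiLCs, against 0.297, 0.248 and 0.133 CPM in J2KO ESCs, and 32.6, 32.6 and 33.3 CPM in J2WT EpiLCs with no count in J2WT ESCs. Its difference was called lower, though its size depends on the zero counts of J2WT. Armcx3, an X-linked mitochondrial protein gene, did not rise in J2KO, with 1.78, 2.55 and 2.97 CPM in J2KO EpiLCs, against 2.55, 1.8 and 2.06 CPM in J2KO ESCs. In J2WT it had 2.68, 3.25 and 2.62 CPM in EpiLCs, against 0, 0 and 0.063 CPM in ESCs. The EpiLCs of the lines overlapped while the ESCs did not. The size of its difference rests on 1 count in J2WT ESCs, and was -8.34 without J2WT ESC replicate 3, which holds it, beside -6.45 with all libraries. Esrp1, which encodes an epithelial splicing regulator, had 124, 118 and 121 CPM in J2KO EpiLCs, against 1.72, 2.73 and 1.86 CPM in J2KO ESCs, and its rise in J2KO was smaller by 2.98 ± 0.34. Here too the EpiLC levels of the lines overlapped, with 115, 119 and 120 CPM in J2WT EpiLCs. Lef1, the Wnt-pathway transcription factor gene, was 1 of 4 displaced genes with a larger rise in J2KO, beside Arl4c, Dnmt3b and Cbr3. It had 172, 163 and 173 CPM in J2KO EpiLCs, against 1.72, 1.3 and 1.92 CPM in J2KO ESCs, and 111, 108 and 103 CPM in J2WT EpiLCs, against 3.55, 2.06 and 2.2 CPM in J2WT ESCs (difference 1.33 ± 0.22).

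Hox genes, the textbook Polycomb targets, were low throughout. Of 39 genes 11 were tested in J2KO, 10 fell (90.9%, beside 12% of all genes) and none rose, with a median of -3.0. A gene near silent in EpiLCs could meet the count minimum through its ESC counts alone, as Hoxc12 did with 122 counts against 0. This choice can raise the share that fell. Hoxc13 had 0.43, 0.425 and 0.97 CPM in J2KO EpiLCs, against 9.44, 11.2 and 12.1 CPM in J2KO ESCs (-4.14 ± 0.20), and fell as far in J2WT (-4.03 ± 0.16). Hoxd13 was the gene not called in J2KO, and it remained above the wild type. It had 4.97, 6.56 and 6.47 CPM in J2KO EpiLCs, against 7.24, 7.5 and 7.63 CPM in J2KO ESCs, while J2WT had 2.07, 3.31 and 2.55 CPM in EpiLCs, against 0.872, 0.967 and 1.01 CPM in ESCs (difference -1.78 ± 0.27). In ESCs the Hox genes split between the lines, with 6 of 16 called higher and 6 lower in J2KO. These are 37.5% each, beside 6.82% of all genes called higher and 6.52% called lower. Hoxb4, Hoxb7, Hoxa7, Hoxd8, Hoxd9 and Hoxd13 were the higher ones. Hoxb4 and Hoxb7 lie on chromosome 11.

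The subunits of PRC2 and PRC1 were called about as often as other genes. In J2KO 15.4% of PRC2 genes fell and 7.69% rose, and 9.09% of PRC1 genes fell and as many rose, beside 12% of all genes lower and 15.2% higher. Of 13 PRC2 genes 1 rose (Phf19, 1.40 ± 0.19) and 2 fell (Eed, -1.29 ± 0.03, and Phf1, -1.89 ± 0.12) in J2KO. Eed encodes the core subunit that reads methylated H3K27, and it had 124, 119 and 123 CPM in J2KO EpiLCs, against 308, 301 and 301 CPM in J2KO ESCs. Of 22 PRC1 genes 2 rose (Kdm2b, 1.24 ± 0.03, and Pcgf6, 1.05 ± 0.03) and 2 fell, of which Phc2 had a log2 fold change of -1.22 ± 0.06. No difference between J2KO and J2WT was called by edgeR in either list. The sizes of the differences were at most 0.44 among PRC2 genes and 0.79 among PRC1 genes.

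FGF signalling genes mostly rose. Of 21 listed ligands, receptors and feedback genes of the ERK pathway, 19 were tested, 11 rose (57.9%) and 1 fell (5.26%) in J2KO. Over all genes 15.2% rose and 12% fell, and the median of the list was 1.34. In J2WT 10 rose and 1 fell. The ligand Fgf15 had 49.3, 49.1 and 49.7 CPM in J2KO EpiLCs, against 0.772, 0.805 and 0.73 CPM in J2KO ESCs. The immediate-early gene Egr1, a displaced target, rose by 6.85 ± 0.13 in J2KO and by 6.89 ± 0.15 in J2WT. The receptor gene Fgfr2 rose further in J2KO (difference 1.74 ± 0.29), though its level in EpiLCs was 6.51, 6.92 and 6.86 CPM in J2KO against 9.32, 9.33 and 9.07 CPM in J2WT. Among the feedback genes, Dusp6 rose in both lines (3.07 ± 0.05 in J2KO, 2.54 ± 0.05 in J2WT). Dusp4, another phosphatase gene that limits ERK, had 49.5, 45.8 and 47.5 CPM in J2KO EpiLCs, against 1.6, 1.8 and 1.92 CPM in J2KO ESCs, and 245, 249 and 239 CPM in J2WT EpiLCs, against 1.37, 1.23 and 0.819 CPM in J2WT ESCs. Its rise was thus smaller in J2KO, by 2.99 ± 0.23 (edgeR adjusted p = 7.1e-12), and the lines were apart in EpiLCs. Etv4, an ETS factor gene downstream of FGF on chromosome 11, was lower in J2KO at both stages, most of all in ESCs. It had 65.7, 67.1 and 64.3 CPM in J2KO EpiLCs, against 5.82, 5.27 and 5.44 CPM in J2KO ESCs, whereas J2WT had 179, 177 and 175 CPM in EpiLCs, against 133, 129 and 132 CPM in ESCs. It rose in J2KO (3.60 ± 0.07) and was not called in J2WT (0.45 ± 0.04), with a difference of 3.15 ± 0.07. The inhibitor gene Spry4 also started lower in J2KO ESCs (difference 1.61 ± 0.07), and Dusp5 rose less in J2KO (-2.0 ± 0.19).

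Wnt pathway genes split. Of 16 tested of 21, 6 rose and 6 fell in J2KO (37.5% each, beside 15.2% and 12% of all genes). In J2WT 5 rose and 10 fell of 18. The difference was called higher for 5 of 18 (27.8%, beside 6.15% of all genes) and lower for none. Sp5, a direct target of beta-catenin, had 2 counts in all in J2KO EpiLCs, against 4.99, 4.58 and 5.57 CPM in J2KO ESCs, which is 121-fold lower (exact 95% interval 33.3 to 1009). In J2WT ESCs it stood at 67.2, 66 and 65 CPM. Axin2, a negative feedback gene, was not called in J2KO (-0.82 ± 0.05), with 31.9, 30.5 and 32.3 CPM in J2KO EpiLCs against 56.5, 56.1 and 57.1 CPM in J2KO ESCs. It fell in J2WT (-1.99 ± 0.05), and the difference was 1.17 ± 0.07 (edgeR adjusted p = 1.2e-14). Apcdd1, a Wnt inhibitor gene, had 8.55, 6.82 and 7.7 CPM in J2KO ESCs, against 44.5, 44 and 38.3 CPM in J2WT ESCs, and fell less in J2KO (difference 2.03 ± 0.17). Cdx1 (1.95 ± 0.69) and T (3.07 ± 0.84), both Wnt targets, and Lef1 were the other genes with a called difference. The call for Cdx1 was lost without J2KO EpiLC replicate 3 (1.67) and that for T without J2KO EpiLC replicate 2 (2.31), while without J2WT EpiLC replicate 1 the difference for T was 3.98 and still called. In ESCs 5 of 17 genes of the list were called lower in J2KO than in J2WT (29.4%, beside 6.52% of all genes) and none higher.

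LIF signalling genes fell, 6 of 9 tested of 10 (66.7%, beside 12% of all genes), with a median of -1.61 and none higher. In J2WT 6 of 9 fell too. Socs3, the feedback inhibitor induced by STAT3, had 4.73, 3.34 and 4.01 CPM in J2KO EpiLCs, against 192, 185 and 192 CPM in J2KO ESCs (-5.53 ± 0.06). Stat3 itself fell by 2.36 in J2KO and by 2.33 in J2WT. No difference between the lines was called in this list by edgeR. Of 15 BMP pathway and Id genes 6 fell (40%) and 1 rose (6.67%) in J2KO, beside 12% and 15.2% of all genes. The inhibitor of differentiation Id4 had 1.17, 0.364 and 0.711 CPM in J2KO EpiLCs, against 28.3, 25.1 and 29.3 CPM in J2KO ESCs (-5.17 ± 0.16), and the ligand Bmp4 fell by 3.06. Of 16 Nodal and activin genes tested of 17, 3 rose, among them Skil (3.54 ± 0.03) and Lefty1 (2.89 ± 0.05), and 2 fell. As shares of the 16 these are near those of all genes (15.2% higher and 12% lower). Both named genes are targets of SMAD2 and SMAD3 signalling, and Skil is also its repressor. Lefty1 rose less in J2KO (difference -1.06 ± 0.10), with 186, 173 and 171 CPM in J2KO EpiLCs against 110, 106 and 107 CPM in J2WT EpiLCs, and 22.8, 25.3 and 24.3 CPM in J2KO ESCs against 7.35, 6.06 and 7.62 CPM in J2WT ESCs. The J2KO libraries lay above those of J2WT at both stages, and the difference was called in ESCs. Without J2WT ESC replicate 2 the difference of stage effects was -0.97 and was not called.

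Epithelial genes rose and mesenchymal genes fell. Of 12 epithelial genes 9 rose (75%) and 1 fell (8.33%) in J2KO, beside 15.2% and 12% of all genes, with a median of 1.99. Of 7 mesenchymal genes tested of 8, 5 fell (71.4%) and 1 rose (14.3%), with a median of -1.61. The cell adhesion gene Epcam had 344, 336 and 351 CPM in J2KO EpiLCs, against 47.6, 47.1 and 50 CPM in J2KO ESCs. Cdh1, which encodes E-cadherin, rose in J2KO by 1.05 ± 0.03, with 739, 725 and 765 CPM in J2KO EpiLCs against 366, 367 and 359 CPM in J2KO ESCs. Cdh2, which encodes N-cadherin, was the mesenchymal gene that rose (1.69 ± 0.07), and Zeb1 (-2.67 ± 0.08), Snai1 (-2.66 ± 0.14) and Fn1 (-1.81 ± 0.03) fell. The keratin pair differed between the lines, with Krt8 not called in J2KO (0.76 ± 0.11) and lower in J2WT EpiLCs than in J2WT ESCs (-1.23 ± 0.06, difference 1.98 ± 0.12), and Krt18 higher in both (difference 1.17 ± 0.14).

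Sterol genes rose together. Of 21 genes of cholesterol synthesis and uptake, all tested, 18 rose in J2KO (85.7%, beside 15.2% of all genes) and none fell. The median was 1.91, and in J2WT 16 rose and none fell. Insig1, the sterol sensor that restrains SREBP, had 322, 323 and 326 CPM in J2KO EpiLCs, against 32, 35.8 and 33.5 CPM in J2KO ESCs, and rose more than in J2WT (difference 1.15 ± 0.06). The difference was also called for Hmgcs1 (1.06 ± 0.05) and Nsdhl (1.00 ± 0.07). The call for Nsdhl lay at the threshold and was lost, at 0.98 to 1.00, without J2KO ESC replicate 2 or 3, J2KO EpiLC replicate 1 or 3, J2WT ESC replicate 1, or J2WT EpiLC replicate 1 or 2, and also with no count minimum or with protein-coding genes only. Of 25 genes of glycolysis and the hypoxia response 11 rose (44%) and 1 fell (4%) in J2KO, beside 15.2% and 12% of all genes. Ldha had 1784, 1634 and 1815 CPM in J2KO EpiLCs, against 688, 691 and 706 CPM in J2KO ESCs (1.35 ± 0.03), and the glucose transporter gene Slc2a3 fell (-1.32 ± 0.03). No difference between the lines was called in this list by edgeR, and the largest in size was 0.93 ± 0.05, that of Slc2a3.

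**Figure D5:**
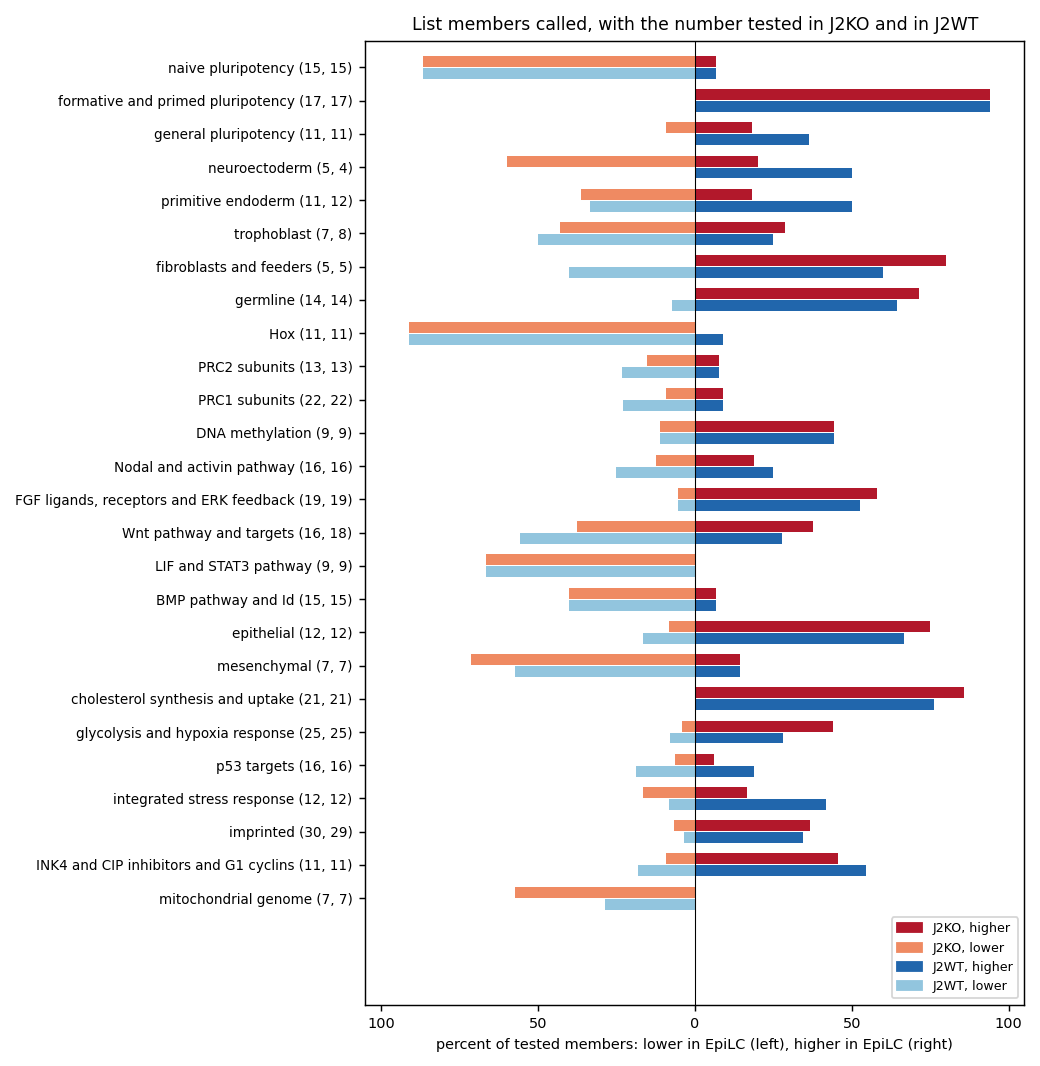
Bars give the percent of tested members of each list called higher (to the right) or lower (to the left) in EpiLCs relative to ESCs, with J2KO above J2WT. Numbers beside each name are the genes tested in J2KO and in J2WT, and lists with under 5 tested genes in J2KO are left out. Naive, Hox and LIF genes lie to the left, and formative, cholesterol and epithelial genes to the right, in both lines.

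Of 9 DNA methylation genes 4 rose (44.4%) and 1 fell (11.1%) in J2KO, beside 15.2% and 12% of all genes. Tet2, a dioxygenase gene of naive ESCs, had 56.4, 64.6 and 61.4 CPM in J2KO EpiLCs, against 548, 580 and 541 CPM in J2KO ESCs (-3.17 ± 0.04). Of 30 imprinted genes tested of 33, 11 rose (36.7%) and 2 fell (6.67%). Plagl1, a zinc finger gene, had log2 fold changes of -6.12 in J2KO and -7.67 in J2WT. Peg10 had 249, 240 and 266 CPM in J2KO EpiLCs, against 45.9, 47.5 and 47.1 CPM in J2KO ESCs, and was far higher in J2WT ESCs (324, 297 and 293 CPM). It rose more in J2KO (difference 1.24 ± 0.06). This is less than the gap between the lines in ESCs, so J2KO lay below J2WT in EpiLCs too. The growth inhibitors Cdkn1c (difference -2.42 ± 0.32) and Phlda2 (-1.56 ± 0.19) rose less in J2KO. Among 12 genes of the integrated stress response 2 rose and 2 fell in J2KO (16.7% each way, near the 15.2% and 12% of all genes). The difference was called lower for 4 (33.3%, beside 5.16% of all genes). They were Vldlr (-1.57 ± 0.12), Slc7a11 (-1.14 ± 0.13), Ddit3 (-1.03 ± 0.12) and Phgdh (-1.01 ± 0.05). The call for Ddit3 was lost without J2WT ESC replicate 1 (-0.96) or J2WT EpiLC replicate 3 (-0.89) or with a mean count of at least 50, and that for Phgdh without J2KO EpiLC replicate 1 (-1.0), J2WT ESC replicate 1 (-0.98) or J2WT EpiLC replicate 3 (-1.0) or with a mean count of at least 50 (-0.98). Among 16 p53 targets tested of 17, only Pmaip1 rose (2.33 ± 0.07) and only Cdkn1a fell (-1.16 ± 0.04). These are 6.25% each way, less than the 15.2% and 12% of all genes. Of 11 cell-cycle inhibitors and G1 cyclins 5 rose (45.5%), led by Ccnd2 (5.76 ± 0.18), and 1 fell (9.09%). Of 13 protein-coding genes of the mitochondrial genome 7 were tested, and 4 fell in J2KO (57.1%).

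Lineage markers were mostly low, and some differed in direction between J2KO and J2WT. In a bulk library fewer cells of a type and less RNA per cell cannot be told apart. Of 12 neuroectoderm genes 5 were tested in J2KO, 3 fell (60%) and 1 rose (20%), beside 12% and 15.2% of all genes. Sox1, the earliest neural SoxB1 gene, had 5.95, 5.34 and 5.37 CPM in J2KO EpiLCs, against 22.3, 20.6 and 20.4 CPM in J2KO ESCs (-1.90 ± 0.09). In J2WT it was higher in EpiLCs, at 21.9, 23.6 and 21.7 CPM against 14.1, 15.8 and 14.7 CPM in ESCs, though not called (0.61 ± 0.07), and the difference was -2.52 ± 0.11 (edgeR adjusted p = 3.6e-17). Nes, the gene of the intermediate filament nestin, had a difference of -1.21 ± 0.07. Of 17 primitive endoderm genes 11 were tested in J2KO. Of these, 2 rose (18.2%) and 4 fell (36.4%), beside 15.2% and 12% of all genes. In J2WT 6 rose and 4 fell of 12. The difference was called lower for 7 of 13 (53.8%) and higher for 2 (15.4%), beside 5.16% and 6.15% of all genes. A gene low in J2KO, such as Cubn or Gata6, could meet the count minimum of this difference through J2WT alone. This choice can raise the share called lower. Cubn, an endocytic receptor of the visceral endoderm, had 0.921, 0.607 and 0.453 CPM in J2KO EpiLCs, too little to test within J2KO, against 12.2, 14.7 and 12 CPM in J2WT EpiLCs. The log2 difference between the lines in EpiLCs was -4.27 ± 0.18. Gata6, a master factor of this lineage, had 0.859, 0.607 and 0.388 CPM in J2KO EpiLCs, against 5.73, 6.56 and 5.55 CPM in J2WT EpiLCs (-3.23 ± 0.22), and ESC levels of 0.772, 0.62 and 0.332 CPM in J2KO against 1.43, 1.03 and 1.13 CPM in J2WT. The summed level of the 17 genes, which is mostly laminin and collagen RNA, was 551 to 578 CPM in J2KO EpiLCs and 1334 to 1382 CPM in J2KO ESCs. Afp and Ttr, which are made by differentiated endoderm, were under 1 CPM in every J2KO library.

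The 8 genes of 2-cell-like cells were all under 1 CPM in J2KO EpiLCs and in J2KO ESCs. The 13 primitive streak genes summed to 15.3 to 18.8 CPM in J2KO EpiLCs and 15.7 to 16.9 CPM in J2KO ESCs, most of it Eomes and, in ESCs, Sp5. The 11 trophoblast genes summed to 24.7 to 27.1 CPM in J2KO EpiLCs and 75 to 77.6 CPM in J2KO ESCs. Cdx2, a trophoblast factor, was under 1 CPM in every J2KO library, while J2WT had 0.305, 0.429 and 0.192 CPM in EpiLCs, against 5.98, 4.19 and 6.05 CPM in ESCs (difference 4.50 ± 0.64). The 12 fibroblast and feeder genes summed to 29.5 to 30.8 CPM in J2KO EpiLCs and 8.31 to 9.22 CPM in J2KO ESCs. Of these genes 7 were under 1 CPM in J2KO EpiLCs, with S100a4 and Prrx1 at 0, and the sum was mostly Thy1, Pdgfrb, Dcn, Col1a2 and Col1a1. Col1a1, a fibrillar collagen gene, rose in J2KO (2.25 ± 0.27) and fell in J2WT (-1.67 ± 0.25), with a difference of 3.92 ± 0.37. The part of other cells in these values was not tested.

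The 10 genes with the largest called difference in each direction, among those whose J2KO and J2WT libraries did not overlap at 1 stage or more, were mostly low. The higher ones were Xkr9, Slc28a3, Vsx1, Tie1, Il15ra, Rph3a, Tbx18, Cdx2, Lcp1 and Cpxm2, and for 8 of them the lines were apart in ESCs, where J2WT was called higher. Slc28a3, a nucleoside transporter gene, had 0.238, 0.124 and 0 CPM in J2KO ESCs, against 10.9, 11.4 and 8.88 CPM in J2WT ESCs, and was under 1 CPM in the EpiLCs of both lines. Tie1, an endothelial receptor gene, had 2.39, 2.98 and 2.33 CPM in J2KO EpiLCs, against 0.178, 0.124 and 0.199 CPM in J2KO ESCs, and went the other way in J2WT, with 1.16, 0.859 and 1.34 CPM in EpiLCs, against 4.11, 5.03 and 3.97 CPM in ESCs (difference 5.85 ± 0.39). Xkr9, a scramblase family gene, had 3.31, 3.64 and 4.14 CPM in J2KO EpiLCs and no count in J2WT EpiLCs, and was at least 59.5-fold higher in J2KO. The lower ones included Armcx3, Ikzf1, Cubn, Rasef, Alox15, Bcl11a, Prom1, Igsf10 and Rassf6. Prom1, which encodes the membrane protein CD133, had 17.7, 15.7 and 17.8 CPM in J2KO EpiLCs, against 14.7, 12.8 and 14.3 CPM in J2KO ESCs, and 31.3, 29.9 and 29.4 CPM in J2WT EpiLCs, against 1.06, 1.1 and 1.32 CPM in J2WT ESCs. Its J2KO levels were near each other at both stages, while its J2WT levels were far apart (difference -4.40 ± 0.16, edgeR adjusted p = 1.2e-19).

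QKO and TKO cells gave a second comparison of the stage effect without and with JARID2, in libraries that share none with those above but lack the Polycomb-like proteins throughout. The difference of stage effects, QKO minus TKO, was called higher for 328 of 12601 genes (2.6%) and lower for 246 (1.95%). Over 12348 genes tested in both, 611 were called higher in the J2KO minus J2WT difference and 309 in the QKO minus TKO difference. They shared 71, which is 11.6% of the J2 list and 23% of the QKO list, while 2.5% of all these genes were called higher in QKO minus TKO. Of those called lower, 562 and 231, they shared 49, which is 8.72% of the J2 list and 21.2% of the QKO list, beside 1.87%. In opposite directions stood 34 and 38 genes, which are 5.56% and 6.76% of the J2 lists, beside 1.87% and 2.5%. Opposite calls were thus also more frequent than over all genes. The median QKO minus TKO value was 0.18 for the genes higher and 0.00 for those lower in J2KO minus J2WT. Recruited genes were called higher in QKO minus TKO for 48 of 340 (14.1%) and lower for 5, and displaced genes higher for 4 and lower for 7 of 73 (9.59%). In the naive list 9 of 15 genes were called higher in QKO minus TKO, against 1 of 15 in J2KO minus J2WT. Prdm14 was called in both, with 1.77 ± 0.15 in QKO minus TKO. Tbx3 had 1.63 ± 0.07 in QKO minus TKO beside its -0.06 ± 0.10 in J2KO minus J2WT. Of the primitive endoderm list 7 of 13 were called lower in each comparison (53.8%). Over all genes 5.16% were called lower in J2KO minus J2WT and 1.95% in QKO minus TKO. Gata6 (-1.99 ± 0.46 in QKO minus TKO), Gata4 (-1.41 ± 0.18) and Pdgfra were called lower in both. Sox1 and Khdc3 were not called in QKO minus TKO (0.66 ± 0.11 and 0.08 ± 0.27), and Dnmt3b had the opposite sign there (-2.08 ± 0.08). Whether 2 such differences differ from each other was not tested.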

How the data were processed

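Poly(A) RNA was sequenced in 36 libraries, and the deposited files hold counts of reads per gene that the authors obtained with STAR on mouse GRCm38 with Ensembl annotation, 1 file per library. The unstranded count column was used, so reads of overlapping or antisense partners are not separated. Reads not counted to a gene, 23.22% to 30.24% of reads in the libraries used here, were left out of library sizes. They include reads that map to several places, 11.39% to 14.02% of reads. Gene symbols were matched for 55141 of 55401 gene IDs. Members and gene lists were chosen with earlier results of these data known.

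Tests were quasi-likelihood F tests (edgeR 4.0.16, R 4.3.3) with TMM scaling. A gene needed a mean of 15 normalized counts or more, and p-values were adjusted by the Benjamini-Hochberg method over all genes tested. To be called, a gene needed an adjusted p below 0.05 together with a log2 fold change beyond 1 in size. The stage comparisons used 6 libraries each, and the differences of stage effects used an interaction term over 12 libraries. SE is the fold change over the square root of the test statistic. Fits were first tested on simulated data. Some named genes are not reported here. Named genes were the members of 29 lists, the 10 called protein-coding genes that changed most up or down with no overlap of libraries, and the 5 largest per direction among recruited and displaced genes. PRC2 classes came from the study's table of SUZ12 sites, and that of maintained sites was used in part. For genes at 0, a floor of 3 counts over the group gave bounds, and intervals are exact 95% and cover counting error only. Alternatives were DESeq2 1.42.0, RLE scaling, other count minimums, protein-coding genes only, a replicate block and each library left out. Replicate numbers did not pair the libraries. A check of promoter CpG content was void, since 74.9% of the tested genes had a RefSeq window. Tables and figures were made with Python 3.11.15, pandas 2.3.3, SciPy 1.17.1 and matplotlib 3.10.9.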

Additional observations from a re-analysis of the deposited data

Results flagged for a closer look

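These results stand here because the stage effects of J2KO and J2WT differed by the test of the interaction in edgeR. The difference, J2KO minus J2WT, was called higher for 856 genes and lower for 718. The values below are log2 differences of genes described above, and their causes were not tested. Among pluripotency genes the difference was higher for Prdm14 (1.69), Dnmt3b (1.38) and Lef1 (1.33). Of the germline genes, higher values were those of Sycp3 (1.74), Brdt (2.94), Dazl (1.01) and Tex101 (1.95). For PRC2-recruited genes the higher values were Khdc3 (4.31), Cited4 (3.40), Slc16a9 (3.30), Frmd4b (2.72), Npr3 (2.68), Map6 (2.57), Aqp3 (2.40) and Cdx1 (1.95). In the set of FGF and Wnt pathway genes they were Etv4 (3.15), Fgfr2 (1.74), Spry4 (1.61), T (3.07), Apcdd1 (2.03) and Axin2 (1.17). The epithelial and sterol genes with a higher value were Krt8 (1.98), Krt18 (1.17), Insig1 (1.15), Hmgcs1 (1.06) and Nsdhl (1.00). Higher values were also found for other genes, namely Tie1 (5.85), Cdx2 (4.50), Col1a1 (3.92), Car4 (3.48) and Peg10 (1.24). Lower values, a smaller rise or a larger fall in J2KO, were found among formative genes for Sox3 (-2.78), Lin28b (-2.32), Pou3f1 (-2.24), Grhl2 (-1.96) and Sox4 (-1.20). Of the PRC2 targets, lower values were those of Armcx3 (-6.45), Bcl11a (-4.55), Esrp1 (-2.98), Lama1 (-2.50) and Itga9 (-2.11). For signalling genes the lower values were Dusp4 (-2.99), Dusp5 (-2.0) and Lefty1 (-1.06). In the set of lineage genes lower values were Sox1 (-2.52), Nes (-1.21) and Hoxd13 (-1.78). The genes of growth, imprinting and stress with a lower value were Cdkn1c (-2.42), Phlda2 (-1.56), Vldlr (-1.57), Slc7a11 (-1.14), Ddit3 (-1.03) and Phgdh (-1.01). A last lower value was that of Prom1 (-4.40). The sizes for Bcl11a, with no count in J2WT ESCs, Armcx3, with 1 count there, and Car4, with 1 count in J2KO ESCs, depend on those few counts. Without the library that holds that count the difference was -8.34 for Armcx3 and 5.34 for Car4. Groups of 3 libraries were too small for a search for single outlying libraries.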

How the results depend on the processing

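The counts of called genes depended most on the count minimum, which sets how many genes enter. With no minimum, 3688 genes rose and 2646 fell in J2KO, 3653 and 3183 in J2WT, 1591 were higher and 1518 lower in J2KO ESCs than in J2WT ESCs, and 1432 were higher and 789 lower in J2KO EpiLCs than in J2WT EpiLCs. With a mean count of at least 50, the difference of stage effects was called higher for 555 genes and lower for 424 in J2KO minus J2WT and for 199 and 131 in QKO minus TKO, while 556 were higher and 529 lower in ESCs and 491 higher and 196 lower in EpiLCs, J2KO against J2WT.

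Leaving out each library in turn gave 2026 to 2192 higher and 1644 to 1732 lower genes in J2KO, 2041 to 2207 and 2009 to 2116 in J2WT, 822 to 873 and 692 to 750 for J2KO minus J2WT, 312 to 339 and 222 to 255 for QKO minus TKO, 885 to 967 and 837 to 921 in ESCs, and 806 to 869 and 352 to 421 in EpiLCs. DESeq2 was among the 13 alternatives for J2KO, over which 1438 to 3688 genes rose and 1190 to 2646 fell. Over the alternatives, 194 to 250 recruited genes fell and 56 to 65 displaced genes rose in J2KO. Of 66 results for single genes, 59 kept direction and call in every alternative, and Dazl, Cdx1, T, Lefty1, Nsdhl, Ddit3 and Phgdh lost the call in at least 1.

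Replicate numbers were checked as pairs, but in J2KO the deviations of libraries with the same number correlated at 0.008 to 0.049, so they share only a number. With the replicate number as a block, 2099 genes rose and 1666 fell in J2KO, and the difference J2KO minus J2WT was called higher for 857 and lower for 718. The shallower QKO and TKO libraries and genes at or under the floor of 3 counts limit what could be called.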

Other observations

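Genes of the interferon and antigen presentation pathway, chosen after their values were seen, were higher in J2KO EpiLCs beyond the 3 guanylate-binding protein genes described above. Irf1, a transcription factor that drives such genes, had 178, 167 and 183 CPM in J2KO EpiLCs, against 16.2, 14.9 and 14.5 CPM in J2KO ESCs, and its rise exceeded that in J2WT by 1.57 ± 0.09 on the log2 scale. Psmb8, a subunit gene of the immunoproteasome, had 14.5, 12.6 and 12.2 CPM in J2KO EpiLCs, against 0, 0.062 and 0 CPM in J2KO ESCs, a ratio of 631 (exact 95% interval 113 to 24950). In J2WT EpiLCs its level was lower, at 1.83, 1.9 and 1.79 CPM. The peptide transporter gene Tap1 rose by 2.57 ± 0.10 in J2KO and by 2.57 ± 0.14 in J2WT.

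The class I heavy chain gene H2-K1 has near-identical relatives, and reads that map to several places were not counted. It had 214, 217 and 214 CPM in J2KO EpiLCs, against 42.6, 42.7 and 41.9 CPM in J2KO ESCs. In J2WT it had 77.3, 77.1 and 80.4 CPM in EpiLCs, against 6.91, 8.25 and 7.49 CPM in ESCs, so that J2KO lay above J2WT at both stages. In the other direction, B2m, the light chain of class I molecules, had 6.26, 5.46 and 5.56 CPM in J2KO EpiLCs, against 16.9, 17.1 and 16.5 CPM in J2KO ESCs (-1.52 ± 0.09), and fell in J2WT as well (-1.96 ± 0.10).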
